A study of Mus musculus with 12 samples.

Results

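The genes described here are 8 genes by which natural killer (NK) cells are commonly recognised: Ncr1, Klrb1c, Klrk1, Klrc1, Klrd1, Klre1, Il2rb and Eomes. They were taken by symbol from the 30630 mouse genes listed for every tumor, and all 8 were found by their Ensembl identifiers and passed the filter on low values. Expression was measured by RNA-Seq in 12 tumors of CT-26 cells, a colon carcinoma line of BALB/c origin, of which 6 formed the control group and 6 the swimming group. The cells had been injected with Matrigel under the skin of the right flank of male BALB/c mice bought at 4 to 6 weeks of age, so that all animals carried a tumor and an intact immune system of the strain of the cell line. Exercise lasted 3 weeks, with 2 swims of at most 30 min on each of 6 days per week, while no exercise is described for the control group. Each tumor came from 1 mouse and was sequenced as bulk tissue.

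NK cells are lymphocytes that kill stressed, infected or transformed cells without a rearranged antigen receptor. Whether an NK cell attacks is set by the balance between activating receptors, which bind stress ligands on the target, and inhibitory receptors, which bind MHC class I molecules. Many of these receptors are C-type lectin-like proteins encoded side by side in a cluster on mouse chromosome 6, the NK gene complex. NK cells depend on interleukin-15 and on the T-box factors Eomes and T-bet, and in transplanted tumors they are among the cells that can restrain growth. Activated CD8 T cells share several of these genes, Klrk1, Klrc1, Klrd1, Klre1, Il2rb and Eomes among them, so that only Ncr1 and, in some strains, Klrb1c are close to being restricted to NK cells and related innate lymphocytes. Eomes is a transcription factor and not a receptor, so "NK cell receptor genes" describes 7 of the 8 genes.

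In GRCm38, 5 of the genes lie within the NK gene complex. Klrb1c (ENSMUSG00000030325) spans chr6:128778485-128789215. Klre1 (ENSMUSG00000050241, chr6:129577905-129585827), Klrd1 (ENSMUSG00000030165, chr6:129591782-129598775), Klrk1 (ENSMUSG00000030149, chr6:129610323-129623864) and Klrc1 (ENSMUSG00000030167, chr6:129666015-129678973) follow each other closely. Ncr1 (ENSMUSG00000062524) lies at chr7:4337724-4345164, Eomes (ENSMUSG00000032446) at chr9:118478212-118486132 and Il2rb (ENSMUSG00000068227) at chr15:78479256-78495271. All are protein-coding. Exon bases of Klrb1c are shared with Gm44511 on the same strand and those of Eomes with Gm33460 on the opposite strand, and since no use of strand is stated for the counting, reads from these pairs cannot be told apart. Klrc1 has the close paralogs Klrc2 and Klrc3, and Klrb1c belongs to the Klrb1 family, so reads could be divided between relatives. The reference genome is that of C57BL/6J, whose NK gene complex differs from that of BALB/c, and the part of this difference in the values was not tested.

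The stretch before the start of transcription was read for 6 of the 8 genes from RefSeq (GRCm38.p6), and Klrd1 and Il2rb had no entry. The letters TGTGGT, the core bound by RUNX factors such as Runx3 of cytotoxic lymphocytes, were searched on both strands from 250 bases before to 50 bases after each start. They occurred in Ncr1, Klrb1c, Klrk1, Klrc1 and Klre1, that is in 5 of 6 genes, against 18.9% of all genes with a window and 16.8% of all 32851 windows of that length. The letters GGTGTGA of a T-box site, searched in the same way, occurred in 0 of the 6 genes against 4.6% of all genes and 3.98% of all windows, so no site of one kind overlapped a site of the other. Matches of this kind describe the letters only. The 250 bases before the start are shown, 5′ to 3′ on the strand of the gene, for Ncr1, the gene most particular to NK cells, and for Klrk1 and Klrc1, the genes with the smallest p in the comparison of the groups, with TGTGGT or its reverse complement ACCACA in capitals. The stretches are chr7:4337465-4337714 on the plus strand for Ncr1, chr6:129623865-129624114 on the minus strand for Klrk1 and chr6:129678974-129679223 on the minus strand for Klrc1.
Ncr1: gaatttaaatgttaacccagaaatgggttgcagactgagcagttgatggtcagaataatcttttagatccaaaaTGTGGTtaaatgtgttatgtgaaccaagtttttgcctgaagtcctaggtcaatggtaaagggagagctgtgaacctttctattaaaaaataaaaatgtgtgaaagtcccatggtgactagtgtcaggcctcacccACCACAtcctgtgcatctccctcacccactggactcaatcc
Klrk1: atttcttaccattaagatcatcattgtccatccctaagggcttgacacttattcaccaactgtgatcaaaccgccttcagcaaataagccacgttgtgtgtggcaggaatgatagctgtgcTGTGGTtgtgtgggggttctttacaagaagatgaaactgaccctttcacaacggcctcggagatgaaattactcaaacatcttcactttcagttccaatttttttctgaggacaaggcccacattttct
Klrc1: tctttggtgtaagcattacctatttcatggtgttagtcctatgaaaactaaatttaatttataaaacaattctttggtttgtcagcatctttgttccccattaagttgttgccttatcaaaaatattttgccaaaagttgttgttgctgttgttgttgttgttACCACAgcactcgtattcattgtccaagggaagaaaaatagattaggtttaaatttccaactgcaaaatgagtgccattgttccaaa
At this start, 1 of 2 listed for the gene, Ncr1 held the letters 176 and 41 bases upstream, once on each strand, while Klrk1 held them at 129 bases and Klrc1 at 87 bases. Runx3 itself was 5.58 ± 0.575 FPKM (SD, n = 6) in control tumors against 5.99 ± 0.655 FPKM in swimming tumors (two-sided exact permutation p = 0.303).

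All values are FPKM, a read number that the authors had divided by gene length and by the depth of the tumor, so levels of different genes can be set side by side. The number of reads is unknown. Depth relative to control 1, read from the steps between values of weakly expressed genes, was lowest in control 2, at 0.694, and 0.871 to 1 elsewhere. The 8 genes were weakly expressed, with means over all 12 tumors between 0.104 FPKM for Klrb1c and 6.15 FPKM for Il2rb, at the 36.8th and 75.9th percentile of all 30630 genes. Of the epithelial markers that CT-26 tumors might carry, Krt8 and Krt18 were present in every tumor, while Epcam and Vil1 were too low for the filter. Summed levels of marker genes of other cells differed widely between tumors of the same group, from 0.679 to 131 FPKM among controls and from 0.286 to 186 FPKM among swimming tumors for 4 skeletal muscle genes, and from 0.0445 to 29.4 FPKM and 0.217 to 7.02 FPKM for 4 adipocyte genes. In bulk tissue fewer NK cells and less RNA per cell cannot be told apart.

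By mean level over the 12 tumors, the order was Il2rb, Klrd1, Ncr1, Klrc1, Klrk1, Eomes, Klre1 and Klrb1c. Il2rb was 6.15 ± 1.91 FPKM (SD, n = 12) and exceeded Klrd1, at 1.75 ± 0.646 FPKM, in 12 of 12 tumors. Next came Ncr1 (1.38 ± 0.535 FPKM) and Klrc1 (1.28 ± 0.481 FPKM), and neither Klrd1 and Ncr1 nor Ncr1 and Klrc1 differed beyond their spread. Klrd1 was above Ncr1 in 8 of 12 tumors and Ncr1 above Klrc1 in 5 of 12 (two-sided exact sign-flip test on log2 values, p = 0.132 and 0.533 after Benjamini-Hochberg adjustment over 7 neighboring pairs). The other 5 pairs of neighbors were ordered in the same way in 11 or 12 tumors, with an adjusted p of at most 0.00342 in the same exact test.

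**Figure D1:**
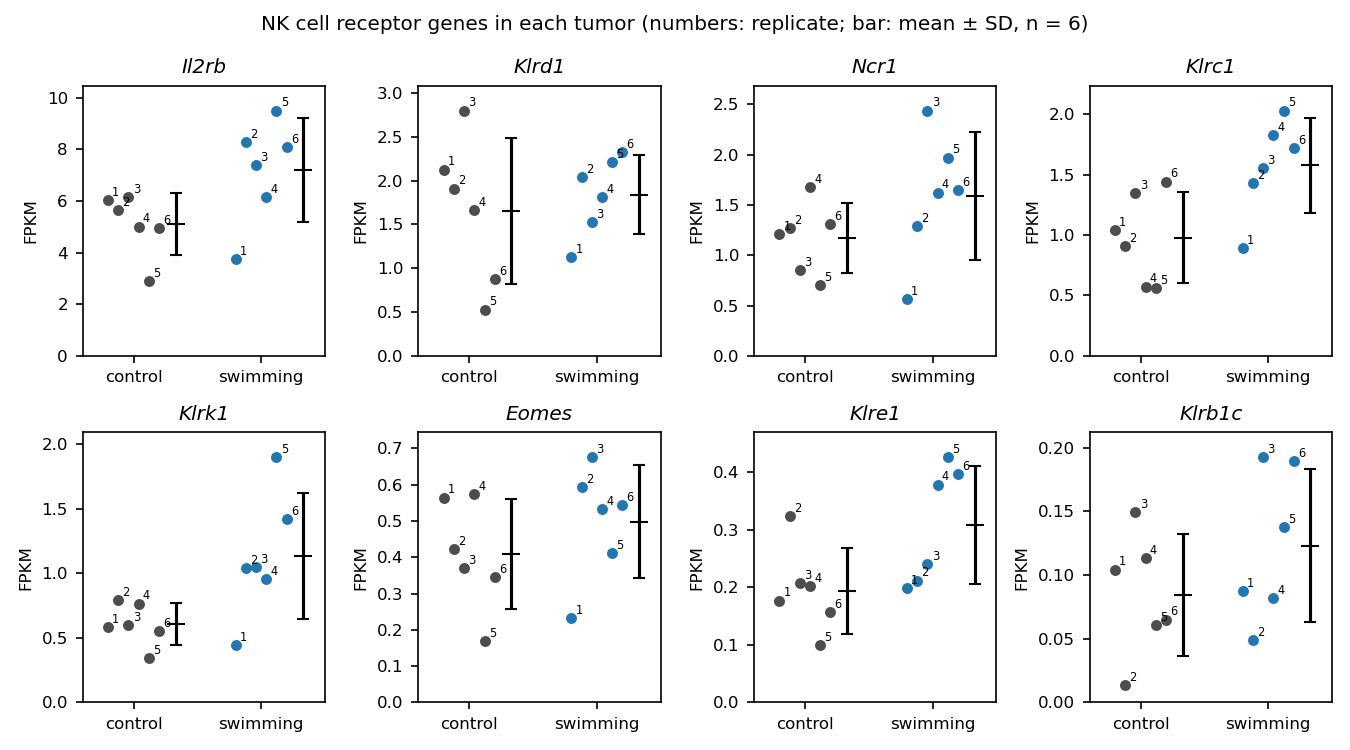
FPKM of the 8 NK cell genes in each tumor, with 1 panel per gene in the order of mean level. Points are tumors with their replicate number, and bars give the mean ± SD of 6 tumors. Swimming 1 lies at the bottom of its group in 7 of 8 panels and control 5 at the bottom of its group in 7 of 8, while swimming 2 to 6 lie above all control tumors for Il2rb and Klrk1.

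To see whether NK cell genes differ in tumors of mice that swam, the groups were compared with limma on log2(FPKM + 1) over the 19018 genes that reached 0.1 FPKM in 6 or more tumors. Each of the 8 genes was higher on average in the swimming group, as were 51.7% of all genes tested. Their median difference was 0.19 on the log2 scale, against 0.00 over all genes tested. The 8 genes were positively correlated over the tumors in all 28 pairs, so they are not 8 separate observations. Klrk1 and Klrc1 had an unadjusted p below 0.05, so 2 of 8 genes passed and 0 of 8 were lower. Over all genes, 5.56% had an unadjusted p below 0.05, with 3.11% higher and 2.46% lower. After Benjamini-Hochberg adjustment 0 of 19018 genes and none of the 8 had an adjusted p below 0.05 by limma, while 1058 genes were below 0.05 unadjusted. For none of the 8 genes were the groups free of overlap, as they were for 0.147% of all genes.

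Klrk1 encodes NKG2D, an activating receptor for ligands that appear on stressed and transformed cells. In the control group Klrk1 lay between 0.345 and 0.794 FPKM with a median of 0.590 FPKM. In the swimming group it lay between 0.444 and 1.90 FPKM with a median of 1.05 FPKM. Swimming 2 to 6 were thus above every control tumor, and only swimming 1 was among them. The means were 0.606 ± 0.163 FPKM (SD, n = 6) and 1.13 ± 0.488 FPKM (SD, n = 6), a log2 difference of 0.38 (standard error 0.14, unadjusted p = 0.0159 and adjusted p = 0.889 in limma's test, two-sided exact permutation p = 0.0238). Its unadjusted p in limma stayed between 9.0e-04 and 0.0383 when each tumor in turn was left out.

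Klrc1 encodes NKG2A, the inhibitory receptor that, joined to CD94, binds the nonclassical MHC molecule Qa-1. It ranged from 0.560 to 1.44 FPKM around a median of 0.973 FPKM in the control group and from 0.895 to 2.03 FPKM around a median of 1.64 FPKM in the swimming group. Swimming 3 to 6 were above all control tumors, swimming 2 was just below the highest of them, and swimming 1 was below the control median. The log2 difference was 0.39 (standard error 0.14, unadjusted p = 0.0153 and adjusted p = 0.889 in limma's test, two-sided exact permutation p = 0.0303), and without each tumor in turn the unadjusted p in limma was between 0.00296 and 0.0380.

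Klrd1 encodes CD94, the partner that NKG2A and its activating relatives need to reach the cell surface. Its lowest, median and highest values were 0.528, 1.79 and 2.80 FPKM in the control group and 1.13, 1.92 and 2.32 FPKM in the swimming group. The control tumors reached both further down and further up, and the tumor with the most Klrd1 was control 3. On the log2 scale the groups differed by 0.15 with a 95% interval from -0.29 to 0.58 (adjusted p = 0.952 in limma's test, two-sided exact permutation p = 0.524). The coefficient of variation was 50.4% among controls and 24.6% among swimming tumors.

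Of the activating partners of CD94, Klrc2 (NKG2C) was 0.197 ± 0.0934 FPKM (SD, n = 6) in control tumors against 0.337 ± 0.143 FPKM in swimming tumors (unadjusted p = 0.0643 and adjusted p = 0.889 in limma's test). Klrc3 (NKG2E) was 0.203 ± 0.214 FPKM and 0.264 ± 0.254 FPKM, with values of 0 listed in both groups. The ligand Qa-1 is encoded by H2-T23, which ranged from 13.7 to 25.9 FPKM among controls and from 16.2 to 38.4 FPKM among swimming tumors, a log2 difference of 0.40 (unadjusted p = 0.0555 and adjusted p = 0.889 in limma's test). Swimming 3, 5 and 6 were above all control tumors for H2-T23.

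Ncr1 encodes NKp46, an activating receptor of NK cells in all mouse strains. It was 0.702 to 1.68 FPKM with a median of 1.24 FPKM in the control group and 0.562 to 2.44 FPKM with a median of 1.64 FPKM in the swimming group. The swimming group held both the lowest tumor, swimming 1, and the 2 highest, swimming 3 and 5, so the ranges overlapped over most of their length. The log2 difference was 0.23 with a 95% interval from -0.14 to 0.60 (unadjusted p = 0.202 and adjusted p = 0.917 in limma's test, two-sided exact permutation p = 0.242). Without swimming 1 it was 0.37 (unadjusted p = 0.0161 and adjusted p = 0.534 in limma's test), and without swimming 3 it was 0.14 (unadjusted p = 0.415 in limma's test).

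Klrb1c encodes NKR-P1C, which carries the NK1.1 epitope in C57BL/6 but is not stained by that antibody in BALB/c. It was the lowest of the 8 genes, at 0.0137 to 0.150 FPKM among controls and 0.0490 to 0.193 FPKM among swimming tumors, with medians of 0.0847 and 0.113 FPKM. The lowest value was that of control 2, the tumor of least depth. On the log2 scale the groups differed by 0.05 with a 95% interval from -0.05 to 0.15 (adjusted p = 0.934 in limma's test, two-sided exact permutation p = 0.245). Gm44511, which shares exon bases with it, was above 0 in 9 of 12 tumors and reached 0.935 FPKM. Klrb1c had exactly the 6 tumors that the filter asks for, so that leaving out any of several tumors removed it from the comparison.

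Klre1 encodes a receptor chain that forms an inhibitory pair with Klri1 and an activating pair with Klri2. Its values ran from 0.0989 to 0.324 FPKM with a median of 0.189 FPKM in the control group and from 0.198 to 0.426 FPKM with a median of 0.310 FPKM in the swimming group. The control median was exceeded in all 6 swimming tumors, and swimming 4, 5 and 6 were above every control tumor. The log2 difference was 0.13 (standard error 0.06, unadjusted p = 0.0555 and adjusted p = 0.889 in limma's test, two-sided exact permutation p = 0.0541). Its unadjusted p in limma fell below 0.05 without control 2 (0.0209), swimming 1 (0.0315), swimming 2 (0.0373) or swimming 3 (0.0497). It rose to 0.120 without control 5 and 0.121 without swimming 5.

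Of its partners, Klri1 was 0.268 to 0.535 FPKM among controls and 0.346 to 1.39 FPKM among swimming tumors, where 5 of 6 tumors were above all control tumors. Its means were 0.384 ± 0.0990 FPKM and 0.843 ± 0.369 FPKM (SD, n = 6), and it passed the unadjusted threshold with a log2 difference of 0.39 (standard error 0.12, unadjusted p = 0.00575 and adjusted p = 0.889 in limma's test, two-sided exact permutation p = 0.0173). Klri2 was 0.133 ± 0.0794 FPKM and 0.148 ± 0.0653 FPKM, a log2 difference of 0.02 with a 95% interval from -0.10 to 0.14. Whether Klri1 and Klri2 differed from each other in their response was not tested.

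Il2rb encodes the β chain through which interleukin-2 and interleukin-15 signal, together with the common γ chain Il2rg. It was 2.91 to 6.14 FPKM with a median of 5.33 FPKM in the control group and 3.75 to 9.50 FPKM with a median of 7.73 FPKM in the swimming group. Swimming 2 to 6 were above every control tumor, and swimming 1 was below all of them but control 5. On the log2 scale the groups differed by 0.41 (standard error 0.19, unadjusted p = 0.0530 and adjusted p = 0.889 in limma's test, two-sided exact permutation p = 0.0779). The unadjusted p in limma was 0.0462 without control 1, 0.0440 without control 3 and 0.00327 without swimming 1. It rose to 0.125 without control 5, 0.118 without swimming 5 and 0.102 without swimming 2.

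Interleukin-15, a ligand of this receptor, is encoded by Il15, which ranged from 1.38 to 2.67 FPKM among controls and from 2.42 to 3.13 FPKM among swimming tumors, and only control 2 reached into the range of the swimming group. It passed the unadjusted threshold with a log2 difference of 0.32 (standard error 0.10, unadjusted p = 0.00752 and adjusted p = 0.889 in limma's test, two-sided exact permutation p = 0.0108). Il2rg was 23.8 ± 4.43 FPKM in control tumors against 26.6 ± 2.90 FPKM in swimming tumors (SD, n = 6, adjusted p = 0.899 in limma's test). Stat5a, which carries the signal of this receptor to the nucleus, was 1.15 ± 0.124 FPKM and 1.46 ± 0.188 FPKM (unadjusted p = 0.0140 and adjusted p = 0.889 in limma's test).

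Eomes, the T-box factor of mature NK cells and of effector CD8 T cells, was 0.170 to 0.575 FPKM with a median of 0.396 FPKM in the control group and 0.233 to 0.676 FPKM with a median of 0.538 FPKM in the swimming group. Control 5 and swimming 1 were the lowest tumors, and swimming 2 and 3 were above all control tumors. The log2 difference was 0.09 with a 95% interval from -0.10 to 0.28 (adjusted p = 0.934 in limma's test, two-sided exact permutation p = 0.338). Its relative Tbx21, which encodes T-bet, was 0.433 ± 0.251 FPKM in control tumors against 0.735 ± 0.340 FPKM in swimming tumors (SD, n = 6, unadjusted p = 0.0753 and adjusted p = 0.889 in limma's test). Gm33460, which shares exon bases with Eomes, was above 0 in 12 of 12 tumors, at 0.568 to 1.27 FPKM with a median of 1.05 FPKM. The part of its reads in the values of Eomes was not tested.

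**Figure D2:**
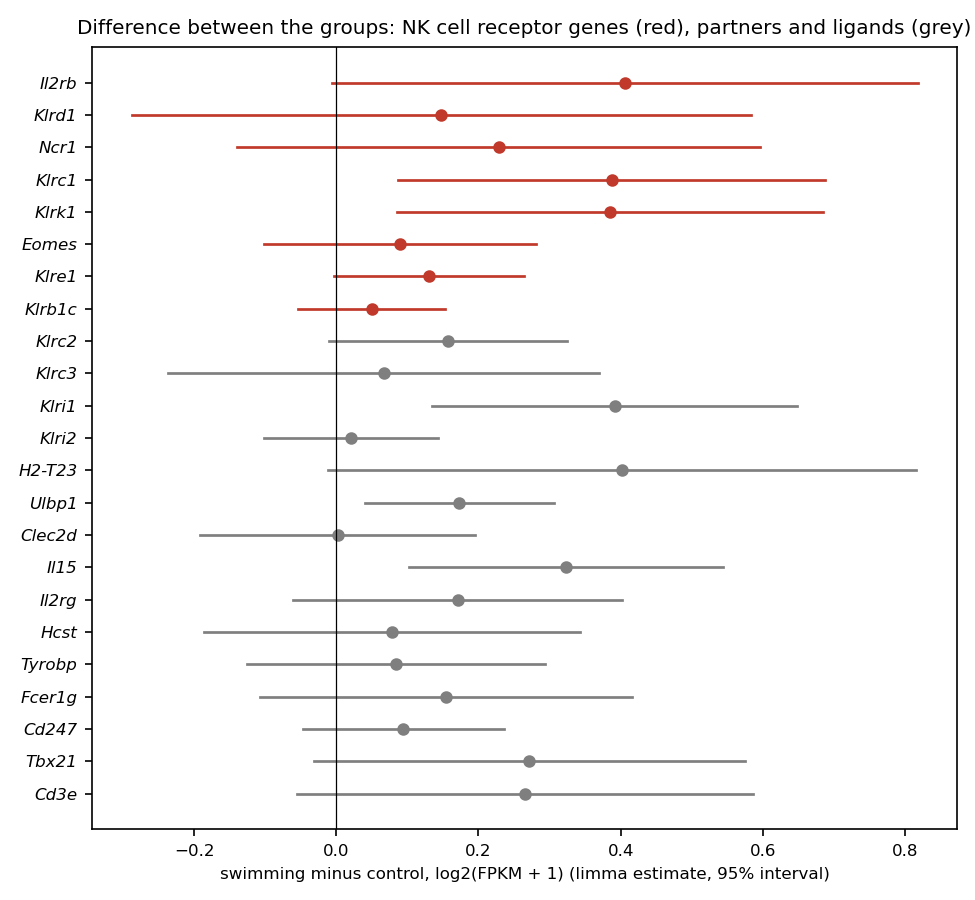
Difference between the groups in limma's fit, as swimming minus control on log2(FPKM + 1), with its 95% interval, for the 8 NK cell genes in red and for partners, ligands and Cd3e in grey. Among the 8 genes the intervals of Klrc1 and Klrk1 lie above 0, and among the grey genes those of Klri1, Ulbp1 and Il15.

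Across the tumors the 8 genes tended to be high or low in the same animals. In their 28 pairs, Pearson r over the 12 pooled tumors lay between 0.29 and 0.89, with a median of 0.58. The summed level of the 8 genes was 5.37 FPKM in control 5 and 9.69 to 12.5 FPKM in the other control tumors. It was 7.30 FPKM in swimming 1 and 13.4 to 18.6 FPKM in swimming 2 to 6. Il2rb made the largest part of this sum, with 2.91 FPKM in control 5 and 3.75 FPKM in swimming 1. Control 5 had the lowest value of all 12 tumors for 6 of the 8 genes. Swimming 5 had the highest value for 4 genes, swimming 3 for 3 and control 3 for 1. Swimming 1 was below the control median for 6 of 8 genes, whereas swimming 5 and 6 were above it for 8 of 8. Relative depth was 0.934 in control 5 and 0.973 in swimming 1. Control 5 also had the fewest genes above 0 of the 12 tumors, 22293, and the highest sum of FPKM, 407109, and the part of these differences in its low values was not tested.

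Among single tumors, the number of genes that passed changed most with swimming 1, the tumor with the lowest summed level in its group. Without it, 5 of the 8 genes (Ncr1, Klrk1, Klrc1, Il2rb and Klre1) passed the unadjusted threshold in limma, and the smallest adjusted p among them was 0.199, for Klrk1. Without control 2, the shallowest tumor, and swimming 1 together, the same 5 genes passed. Leaving out the lowest tumor of the swimming group raises its mean, so these higher counts are no support for a difference. Without control 5, the lowest control tumor, 2 of the 8 genes (Klrk1 and Klrc1) passed. The median log2 difference of the 8 genes was then 0.13, against 0.19 with all tumors. Swimming 1 also had the lowest summed level of 13 cytotoxic effector genes of all tumors, at 28.2 FPKM against 53.9 to 90.7 FPKM in swimming 2 to 6 and 40.5 to 68.8 FPKM in the control group.

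**Figure D3:**
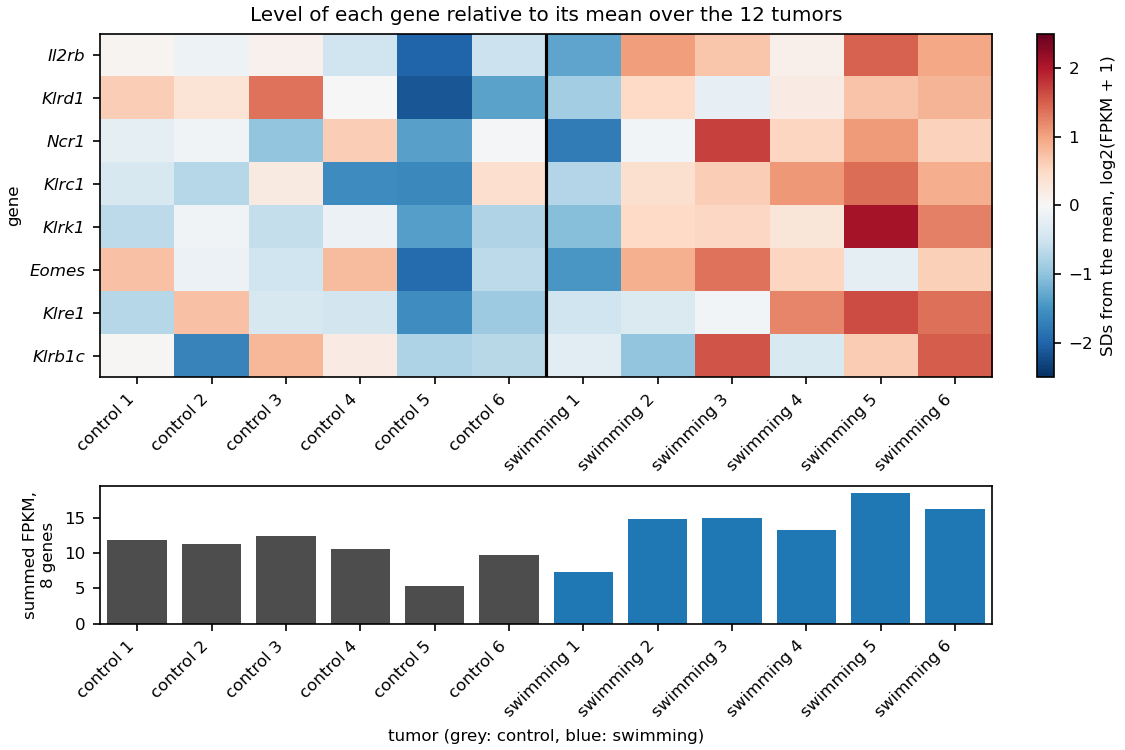
Top, level of each NK cell gene in each tumor as SDs of log2(FPKM + 1) from its mean over the 12 tumors, with control tumors left of the line. Bottom, summed FPKM of the 8 genes per tumor. The columns of control 5 and swimming 1 are the lowest, with sums of 5.37 and 7.30 FPKM, and swimming 2 to 6 lie at 13.4 FPKM or more.

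To ask which of the 8 genes follow NK cells and which follow T cells, each was set against Ncr1 and against Cd3e, a chain of the T cell receptor complex that mature NK cells lack at the surface. This gave 15 relations over 12 tumors on log2(FPKM + 1), tested with 100000 permutations and adjusted by Benjamini-Hochberg. With Ncr1, Klrk1 had r = 0.76 (permutation p = 0.004, adjusted p = 0.03), with a Spearman rho of 0.79 (permutation p = 0.0036, adjusted p = 0.029). Without swimming 1 and swimming 3, the tumors farthest from the median of Ncr1, r was 0.81. Among control tumors alone it was 0.78, and among swimming tumors alone 0.74. Eomes had an r of 0.79 with Ncr1 (permutation p = 0.0025, adjusted p = 0.03), although its rho of 0.62 did not pass the adjustment (permutation p = 0.035, adjusted p = 0.063). Its r was 0.64 without the same 2 tumors, 0.80 within the control group and 0.78 within the swimming group. For Il2rb and Ncr1, r was 0.72 (permutation p = 0.0081, adjusted p = 0.04), with a Spearman rho of 0.62 (permutation p = 0.038, adjusted p = 0.063), with an r of 0.67 without these tumors and of 0.46 and 0.78 within the groups. The relations of Klrb1c, Klrc1, Klrd1 and Klre1 with Ncr1 had r between 0.36 and 0.57 and did not pass the adjustment (adjusted permutation p of r between 0.088 for Klre1 and 0.32 for Klrd1).

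With Cd3e, no r passed the adjustment. The closest gene was Il2rb, with r = 0.68 (permutation p = 0.015, adjusted p = 0.055) while its rho was 0.78 (permutation p = 0.0039, adjusted p = 0.029). Its r was 0.63 when control 1 and swimming 5, the tumors farthest from the median of Cd3e, were left out, and within the groups 0.47 and 0.66. Klrd1 had an r of 0.58 with Cd3e (permutation p = 0.047, adjusted p = 0.087) and a rho of 0.71 (permutation p = 0.011, adjusted p = 0.057). Klrk1, Klrc1 and Klre1 had r of 0.65, 0.62 and 0.60 (adjusted permutation p = 0.067, 0.079 and 0.086), with 0.01, 0.20 and 0.13 among control tumors alone and 0.76, 0.77 and 0.69 among swimming tumors alone. Ncr1 itself had an r of 0.33 with Cd3e (permutation p = 0.29, adjusted p = 0.32) and a rho of 0.21 (permutation p = 0.51, adjusted p = 0.55). Eomes and Klrb1c had r of 0.33 and 0.17 with Cd3e (adjusted permutation p = 0.32 and 0.61). Differences between these correlations were not tested, and the tumors of the 2 groups were pooled in them.

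**Figure D4:**
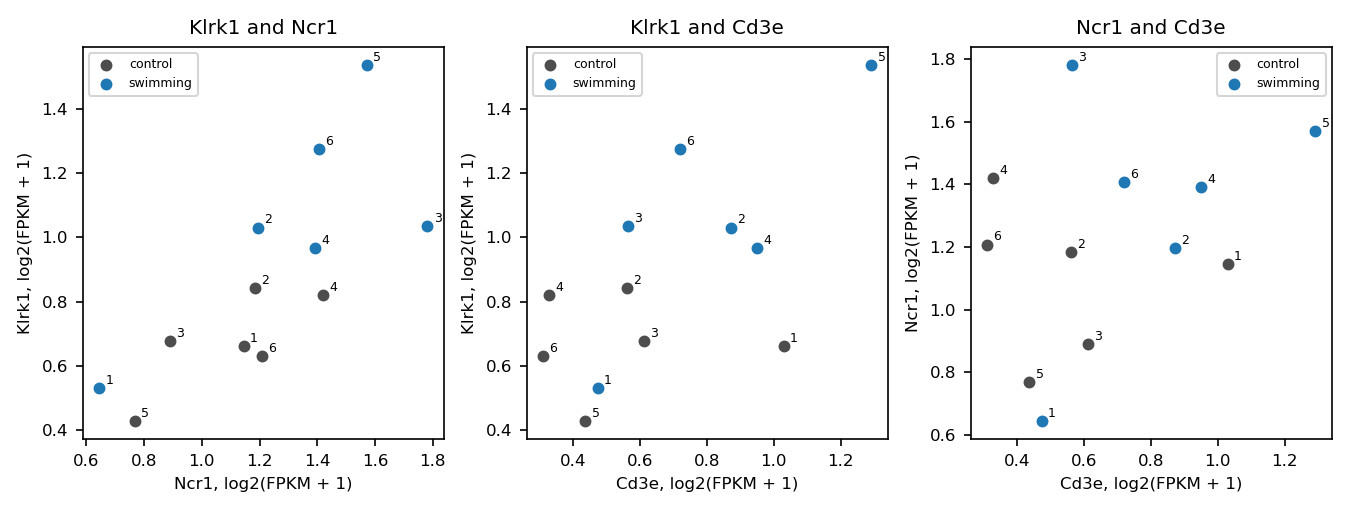
Klrk1 against Ncr1, Klrk1 against Cd3e and Ncr1 against Cd3e, all as log2(FPKM + 1), with 1 point per tumor and its replicate number, control tumors in grey and tumors of the swimming group in blue. Klrk1 rises with Ncr1 in both groups (r = 0.76 over 12 tumors). With Cd3e, r is 0.65 for Klrk1 and 0.33 for Ncr1 over the same tumors, and differences between these values were not tested.

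Of 9 T cell markers, 6 (Cd3d, Cd3g, Cd8a, Cd8b1, Cd5 and Cd6) had an unadjusted p below 0.05 and were higher in the swimming group, against 3.11% of all genes, and none had an adjusted p below 0.05. Cd3e, Cd4 and Cd28 did not pass. The number of T cell markers that passed was 4 without control 5, swimming 2 or swimming 5. It was 7 without swimming 1 and 8 without control 1. All 9 markers were higher on average, as were 51.7% of all genes tested, with a median log2 difference of 0.41 over the list. Their summed level was 3.65 to 8.88 FPKM among controls and 6.06 to 17.3 FPKM among swimming tumors, and none of the markers was at 0 in any tumor. Cd8a was 1.47 ± 0.710 FPKM in control tumors against 2.80 ± 1.19 FPKM in swimming tumors, with overlapping groups (SD, n = 6, unadjusted p = 0.0187 and adjusted p = 0.889 in limma's test). Of 3 markers of γδ T cells tested, only Tcrg-C2, a constant gene of the γ chain, passed the unadjusted threshold. It was 0.597 to 1.01 FPKM in the swimming group and 0.105 to 0.509 FPKM in the control group (adjusted p = 0.870 in limma's test, two-sided exact permutation p = 0.00216, the smallest that 6 against 6 allows). The groups were likewise free of overlap for 0.147% of all genes. Trdc, the constant gene of the δ chain, and Tcrg-C4 had log2 differences of 0.04 and -0.05 (unadjusted p = 0.520 and 0.356 in limma's test). The part of T cells in the values of the shared genes was not tested. Of 4 markers of type 1 innate lymphoid cells, which also carry Ncr1, Cxcr6 alone passed the unadjusted threshold, and T cells express it too. It was 1.06 ± 0.637 FPKM and 2.12 ± 1.06 FPKM, and no gene of this list passed without control 4, 5 or 6 or without swimming 2, 4 or 5. The markers of B cells, macrophages, neutrophils, muscle, adipocytes, fibroblasts and epithelium held 0 genes that passed the unadjusted threshold by limma, although 1 B cell marker passed without control 1.

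Further NK receptors were described by a list of symbols, of which 22 were found in the files and 19 passed the filter. Of these, 6 were higher at an unadjusted p below 0.05 and 0 were lower, against 3.11% and 2.46% of all genes. Their median log2 difference was 0.07. Without swimming 6 or without control 5 the number was 3 in place of 6. Besides Klri1 they were Klra2, Klrb1b, Klrb1f, Cd226 and Slamf7. Klra2, a Ly49 family gene, was the most abundant of them at 7.27 ± 0.786 FPKM in control tumors against 9.48 ± 1.46 FPKM in swimming tumors (SD, n = 6, unadjusted p = 0.00417 and adjusted p = 0.889 in limma's test, two-sided exact permutation p = 0.00866). In control 5, the lowest tumor for most of the 8 NK cell genes, Klra2 was 7.80 FPKM. Which cells of the tumors expressed it was not tested. Klrb1b, the inhibitory relative of Klrb1c, was 0.180 ± 0.0734 FPKM and 0.346 ± 0.111 FPKM, with its control median exceeded in all 6 swimming tumors. Cd226, the activating receptor DNAM-1, was 0.260 ± 0.192 FPKM and 0.533 ± 0.260 FPKM. Its inhibitory rival Tigit was 13.2 ± 2.40 FPKM and 12.1 ± 1.41 FPKM (adjusted p = 0.934 in limma's test). Klrg1, a marker of terminal maturation, was 1.38 ± 0.842 FPKM and 0.842 ± 0.696 FPKM (adjusted p = 0.901 in limma's test).

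Of 16 ligands and cytokines tested, Il15 and Ulbp1 passed the unadjusted threshold and were higher, against 3.11% of all genes. The median log2 difference of the list was 0.09. Without control 1 or without swimming 1 the number was 4 in place of 2. Ulbp1 encodes MULT1, a ligand of NKG2D, and was 18.6 ± 1.60 FPKM in control tumors against 21.0 ± 1.29 FPKM in swimming tumors, a log2 difference of 0.17 (unadjusted p = 0.0146 and adjusted p = 0.889 in limma's test). Its control median was exceeded in all 6 swimming tumors. Clec2d, which encodes a ligand of NKR-P1 receptors, was 43.5 ± 5.65 FPKM and 43.5 ± 4.52 FPKM, with a 95% interval of the log2 difference from -0.19 to 0.20. B2m, the light chain of MHC class I and of Qa-1, was 1723 ± 105 FPKM and 1952 ± 208 FPKM (SD, n = 6, unadjusted p = 0.0605 and adjusted p = 0.889 in limma's test, two-sided exact permutation p = 0.0433). Pvr, a ligand of DNAM-1 and TIGIT, was 28.5 ± 5.59 FPKM and 24.6 ± 6.65 FPKM.

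Of 18 adaptors and signaling proteins tested, Stat5a was higher and Sh2d1b2, which encodes an adaptor of SLAM receptors in NK cells, was lower at an unadjusted p below 0.05. Over all genes, 3.11% were higher and 2.46% lower at that threshold. The number of the 18 genes that passed was 5 in place of 2 without swimming 1 and 4 without control 1. Sh2d1b2 was 0.425 ± 0.123 FPKM in control tumors against 0.205 ± 0.178 FPKM in swimming tumors (unadjusted p = 0.0199 and adjusted p = 0.889 in limma's test). Hcst, the adaptor DAP10 of NKG2D, was 1.78 ± 0.370 FPKM and 1.95 ± 0.504 FPKM, with a 95% interval of the log2 difference from -0.19 to 0.34. Tyrobp (88.7 ± 13.2 and 93.5 ± 7.93 FPKM) and Fcer1g (42.4 ± 6.61 and 47.4 ± 8.36 FPKM), adaptors that myeloid cells also make in quantity, were far above the receptors they serve in NK cells. Cd247, the ζ chain used by NKp46 and by the T cell receptor, was 0.201 ± 0.110 FPKM and 0.280 ± 0.0781 FPKM.

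Of 11 transcription factors tested, 0 passed the unadjusted threshold by limma, against 5.56% of all genes. The median log2 difference of the 11 was 0.10. The number was 2 without swimming 1 and 1 without control 1, control 2, control 4 or swimming 5. The most abundant were Nfil3, Id2 and Ets1. Nfil3 lay between 12.3 and 18.6 FPKM among controls and between 9.09 and 18.5 FPKM among swimming tumors. Id2 was 13.6 ± 1.66 against 14.7 ± 1.67 FPKM and Ets1 10.3 ± 4.71 against 11.8 ± 3.96 FPKM (SD, n = 6).

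Of 13 effector genes, 4 passed the unadjusted threshold and were higher, against 3.11% of all genes, with a median log2 difference of 0.29. They were Ifng, Tnfsf10, Ccl5 and Gzmk. The number was 3 without control 5, control 6, swimming 5 or swimming 6, and 6 without swimming 1. Ifng, the cytokine by which NK and T cells activate macrophages and antigen presentation, was 0.125 to 0.584 FPKM among controls and 0.334 to 1.83 FPKM among swimming tumors, where 5 of 6 tumors were above all control tumors (unadjusted p = 0.00629 and adjusted p = 0.889 in limma's test, two-sided exact permutation p = 0.0173). Tnfsf10, which encodes the death ligand TRAIL, was 1.01 ± 0.207 FPKM and 1.85 ± 0.796 FPKM, again with 5 of 6 tumors above all control tumors. Perforin and granzymes A and B, proteins of the lytic granule, did not pass, whereas granzyme K, encoded by Gzmk, is among the 4. Prf1, perforin, was 10.2 ± 4.15 FPKM and 9.01 ± 4.25 FPKM (adjusted p = 0.961 in limma's test), Gzma was 9.36 ± 3.85 and 10.6 ± 4.55 FPKM, and Gzmb was 13.8 ± 4.30 and 16.0 ± 8.18 FPKM. The control median of Prf1 was exceeded in 2 of 6 swimming tumors, that of Gzmb in 3 and that of Gzma in 4.

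The genes whose pattern was most like that of the 8 were sought among 14484 genes with a mean of at least 0.5 FPKM, by the Pearson correlation over 12 tumors with the mean standardised level of the 8 genes after the group means had been subtracted. The 10 closest were Gbp8, Tapbp, Elf4, Pi4ka, Tap2, Gm12250, H2-T23, Nmi, H2-Ab1 and Sp110, with r between 0.94 and 0.96. Tapbp and Tap2 load peptides onto MHC class I, H2-T23 encodes the ligand of NKG2A, and H2-Ab1 is a chain of MHC class II. Their means were 86.7, 28.6, 24.6 and 41.9 FPKM, far above those of the 8 NK cell genes, of which Il2rb was the highest at 6.15 FPKM. Being the highest of so many correlations, these values are a description. The mean standardised level lay far below the rest of its group in control 5 (-1.59 SD) and swimming 1 (-0.99 SD). The correlations were not repeated without these tumors.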

How the data were processed

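RNA of 12 CT-26 tumors, 6 per group, was depleted of ribosomal RNA and sequenced. Per the labels and the methods of the study, the authors mapped reads with HISAT2 2.0.5 and computed FPKM per gene with StringTie 1.3.3. The deposited files hold 1 FPKM value per mouse Ensembl gene and tumor. The methods name hg38, whereas the processing notes also list GRCm38. Symbols, found for 30542 of 30630 genes, and coordinates are from GENCODE M21 on GRCm38, and promoters from RefSeq. Proteins were not used here.

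The labels gave each tumor's group and number. Values were compared as log2(FPKM + 1) after keeping the 19018 genes that reached 0.1 FPKM in 6 or more tumors, by limma 3.58.1 (R 4.3.3) with a mean-variance trend, 2 groups and no covariate, and Benjamini-Hochberg adjustment over all genes. The pseudocount understates changes of weakly expressed genes. For single genes an exact two-sided permutation test was added over the 924 divisions into 6 and 6, with a smallest p of 0.00216. Python 3.11.15, pandas 2.3.3, scipy 1.17.1 and matplotlib 3.10.9 were used. On simulated data with 200 of 19018 genes changed by 1 on the log2 scale, 95.5% were recovered at an adjusted p below 0.05, with 15 false calls. The changed genes were drawn only from more highly expressed genes, at a level that Il2rb alone of the 8 reached. The largest difference of the 8 genes was 0.41, so this share does not hold for differences of their size.

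The 8 genes and the gene lists were chosen with earlier results of these data known. Named genes are the 8, their direct partners, list members with an unadjusted p below 0.05, the most abundant of each NK list and the 10 most alike. Runx3, the genes overlapping Klrb1c and Eomes were named after their values were seen. FPKM hold no read numbers, so no counting error is given.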

Additional observations from a re-analysis of the deposited data

Results flagged for a closer look

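Dixon's ratio was used to look for a tumor standing apart within its group in 48 groups of 6 values, from the 8 NK cell genes, 14 partner genes and 2 summaries of the 8 genes. It was found in 3 groups, where chance gives about 1 in 20 or 2.4. Il2rb was 2.91 FPKM in control 5, with the other control tumors between 4.94 and 6.14 FPKM. The mean standardised level of the 8 genes was -1.59 SD in control 5, with the other control tumors between -0.56 and 0.01 SD. These are not independent, since Il2rb is 1 of the 8. Cd3e was 1.04 FPKM in control 1, with the other control tumors between 0.240 and 0.528 FPKM. That tumor also had the highest summed level of B cell and adipocyte markers, at 5.61 and 29.4 FPKM.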

How the results depend on the processing

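With the replicate number as a block, 2 of the 8 genes (Klrk1 and Klrc1), 11 genes of the 5 NK lists, 892 genes in all and 0 genes at an adjusted p below 0.05 passed, against 2, 14, 1058 and 0 without it. Same-numbered tumors came from different mice and their deviations had a mean correlation of -0.12, so the numbers were not taken as pairs. The block left 3 further NK receptors past the threshold in place of 6 and changed no call among the 8 genes. With it 1 transcription factor in place of 0 and 0 innate lymphoid markers in place of 1 passed. The block also left 4 T cell markers in place of 6 and 3 effector genes in place of 4. A filter of 1 FPKM kept 4 of the 8 genes, of which 1 (Klrc1) passed. Of the NK lists, 7 genes passed with this filter, under which fewer genes were tested. With quantile normalization 4 of the 8 genes passed, Il2rb and Klre1 among them. Without control 2 and swimming 1 together, 5 of the 8 genes and 25 genes of the NK lists passed, and 1 gene in all had an adjusted p below 0.05. With each tumor in turn left out, the counts were 2 to 5 of the 8 genes, 10 to 25 genes of the NK lists, 820 to 1427 genes at an unadjusted p below 0.05 and 0 to 3 at an adjusted p below 0.05, with the 2 extremes of 5 and 25 without swimming 1. The cause of these changes was not tested. No log2 difference of the 8 genes reversed under the alternatives in which the gene was tested, though that of Klrd1 was 0.00 without control 5. A pseudocount of 0.01 raised the median log2 difference of the 8 genes from 0.19 to 0.53. Since depth is unknown, no counting error can be given for the lowest genes, Klrb1c and Klre1.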
